A study of Homo sapiens with 6 samples.

Results

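The genes described here are 40 genes of DNA replication, chosen by name as the core of the machinery that licenses origins, unwinds and copies DNA, supplies nucleotides and rebuilds chromatin behind the fork. Of these, 23 were among the 7150 genes listed in the authors' deposited table and 17 were not. RNA was sequenced from MDA-MB-231, a wild-type human triple-negative breast cancer cell line with a mesenchymal shape. The groups were 3 libraries from cells given 0.5 µM shikonin for 24 h, shikonin being a naphthoquinone pigment of gromwell root, and 3 from cells labelled as receiving no treatment. The dose unit is printed in the labels with a lower-case m and is read as micromolar, and no vehicle is named in them. The table holds the authors' DESeq2 comparison, restricted to genes that differed by more than 1.5-fold at an adjusted p below 0.05. It holds 0 columns of values per library, which leaves library depth unknown, and the levels below are group means implied by the listed overall mean and fold. Its header does not name the numerator, and values that the authors marked "up" are taken to be higher in shikonin. No label ties the libraries to separate cultures, and the p-values therefore measure a spread that may be purely technical. Intervals are 95% intervals of the fold.

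Before S phase, the origin recognition complex with CDC6 and CDT1 loads the MCM2-7 ring onto DNA. At the G1/S transition, cyclin E with CDK2 releases E2F factors from RB proteins, and E2F raises transcription of most of the genes below. CDC45 and GINS then join MCM2-7 to form the active helicase. DNA polymerase alpha-primase lays primers, the RFC complex loads the PCNA clamp, and polymerases epsilon and delta extend the strands. In cultured cancer cells, which divide continuously, these transcripts are normally present at high levels.

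Shikonin-treated cells had more RNA of 17 DNA replication genes and less of 6, and several complexes had subunits on both sides. The largest rises were in POLA2 (3.07-fold) and TK1 (3.05-fold) in the authors' deposited table, while the falls were in the catalytic polymerase subunits POLA1 and POLE, in MCM4, MCM10 and UHRF1, and in the scarce E2F2. The authors' deposited table listed 42.5% of the 40 genes as higher, beside 25.5% of about 14254 genes tested, and 15% as lower, beside 24.7%. Whether the 17 unlisted members were tested is not known, and their absence says only that they did not pass both thresholds or were not tested. They are ORC1, CDC6, MCM2, MCM3, MCM6, GINS1, GINS4, POLD1, RFC3, FEN1, LIG1, RRM1, RRM2, CHAF1A, CHAF1B, CCNE1 and E2F1. The median log2 fold change of the 23 listed members was 0.80 in the authors' deposited table, beside 0.60 over all 7150 listed genes. Both medians lie next to the gap that the fold threshold leaves around 0 and depend on which side holds more genes.

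Of the 40 members, 5 (12.5%) were at least 2-fold higher in the authors' deposited table, namely TK1, POLA2, RFC2, GINS2 and PRIM1, beside 16.4% of all genes tested. E2F2 alone (2.5%) was at least 2-fold lower in the authors' deposited table, beside 14.6% of all genes tested. The 95% interval of the fold lay wholly beyond 1.5 for TK1, POLA2, RFC2, GINS2 and RFC4 and for 0 of the 6 lower members. Of the 76 other replication genes described below, 10 passed this limit as higher and 12 as lower. The share over all genes was not computed. Setting the implied totals of the listed genes equal in both groups was a shift of 0.39 on the log2 scale. That is smaller than the fold threshold, so no listed gene could change direction under it. With that shift, 6 members were still past 1.5-fold on the higher side (TK1, POLA2, RFC2, GINS2, PRIM1 and RFC4). It lowers every log2 fold change, so the 6 lower members could only move further past 1.5-fold. The higher share was then 15% of the members, beside 16.8% of all genes tested, so the larger share of higher members seen with the authors' scaling was not present with this one. In bulk RNA, a different number of cells in S phase and a different amount of RNA per cell cannot be told apart.

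**Figure D1:**
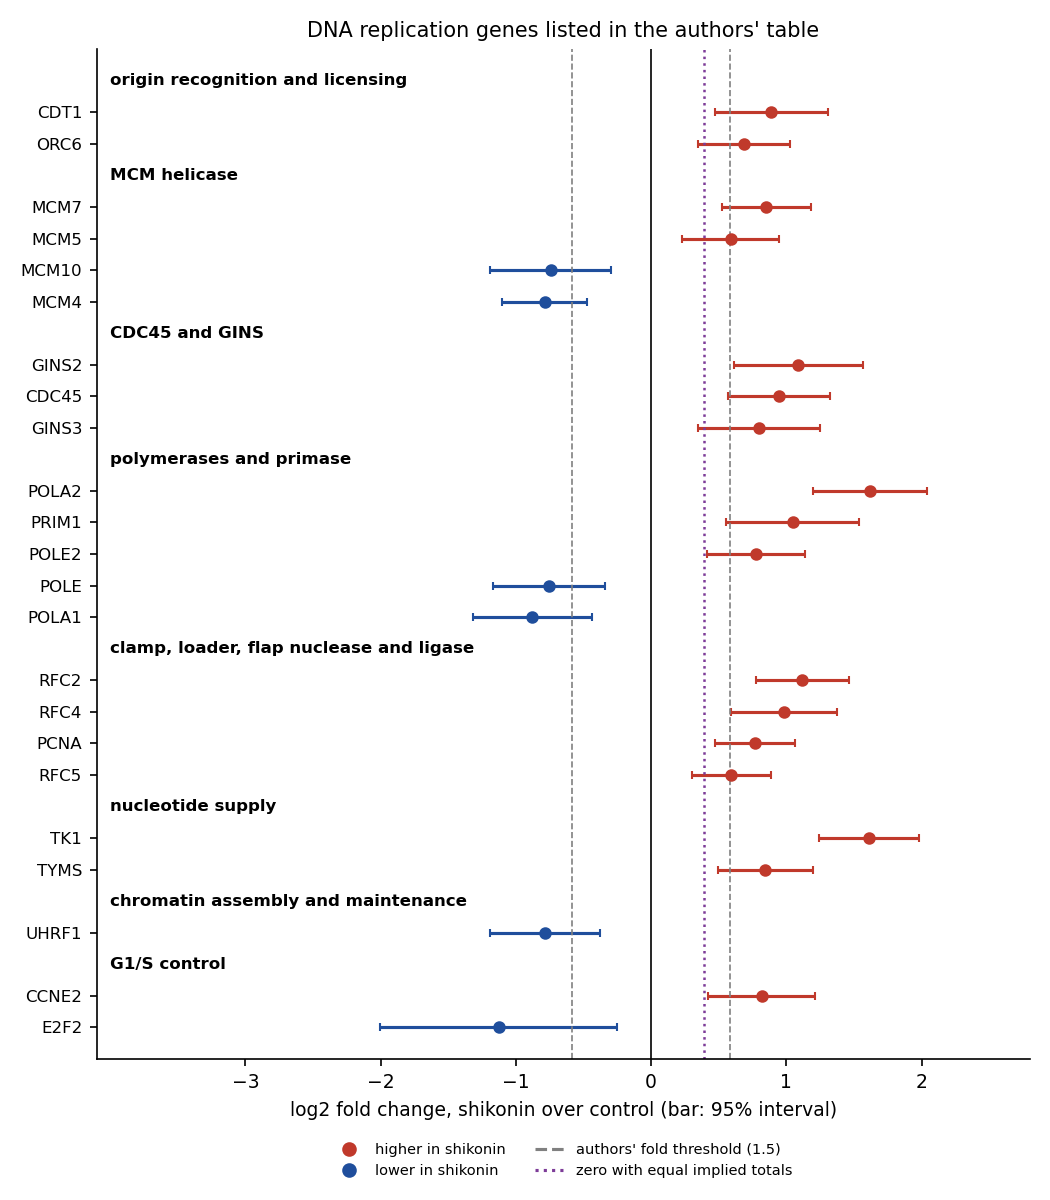
Log2 fold change of the 23 listed DNA replication genes, shikonin over control, by role, with 95% intervals from the authors' standard errors. Red points (17) are higher and blue points (6) lower in shikonin. The dashed lines mark 1.5-fold. The dotted line, at 0.39, is where 0 lies with equal implied totals. That shift moves 11 of the 17 higher points inside the fold threshold and is too small to move any across 0.

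Among the licensing factors, CDT1 and ORC6 rose and the other 2, ORC1 and CDC6, were not listed. CDT1, which brings the MCM ring to origins, had an implied mean of 1453 normalized counts in shikonin and 786 in control. Its log2 fold change in the authors' deposited table was 0.89 ± 0.21 (standard error), with an adjusted p of 8.59e-05 by DESeq2. ORC6, the smallest subunit of the origin recognition complex, stood at 526 in shikonin and 326 in control, a rise of 1.61-fold (95% interval 1.27 to 2.04) by the authors' deposited table.

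The MCM helicase genes were split. MCM7 was the most abundant of the 4 that were listed, with implied means of 5523 normalized counts in shikonin and 3061 in control, a log2 fold change of 0.85 ± 0.17 (standard error; DESeq2 adjusted p = 1.44e-06) in the authors' deposited table. MCM5 reached 2116 in shikonin against 1408 in control. At 1.503-fold (interval 1.17 to 1.93) it stood just inside the fold threshold of the authors' deposited table. MCM4, another subunit of the same ring, went the other way, with 1486 normalized counts in shikonin and 2566 in control. The log2 fold change of MCM4 in the authors' deposited table was -0.79 ± 0.16 (standard error; DESeq2 adjusted p = 2.97e-06). MCM10, which binds the ring and helps to start unwinding but is not part of it, was also lower, with 396 normalized counts in shikonin and 663 in control (log2 fold change -0.74 ± 0.23 in the authors' deposited table). The other ring subunits MCM2, MCM3 and MCM6 were not listed. Exons of MCM7 overlap those of AP4M1 on the opposite strand over 8.94% of their bases, and whether the counting used strand is not stated.

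The cofactors that complete the helicase were listed only as higher. CDC45 had an implied mean of 898 normalized counts in shikonin and 466 in control, a 1.93-fold rise (interval 1.48 to 2.50) in the authors' deposited table. Of the 4 GINS subunits, GINS2 was 2.13-fold higher (interval 1.53 to 2.96) and GINS3 was 1.74-fold higher (interval 1.27 to 2.38) in the authors' deposited table. GINS2 stood at 521 in shikonin and 245 in control, and GINS3 at 355 in shikonin and 204 in control. GINS1 and GINS4 were not listed.

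Of the listed polymerase subunits, the catalytic subunits POLA1 and POLE fell, while POLA2, POLE2 and the primase gene PRIM1 rose. POLA2, the regulatory B subunit of DNA polymerase alpha (chr11:65261762-65305589, GRCh38, 18 exons), had implied means of 498 normalized counts in shikonin and 162 in control. The log2 fold change of POLA2 in the authors' deposited table was 1.62 ± 0.21 (standard error; DESeq2 adjusted p = 3.32e-13), or 1.23 with equal implied totals. POLA1, the catalytic subunit of the same complex (chrX:24693919-24996986, 37 exons), was at 398 normalized counts in shikonin and 731 in control. Its log2 fold change in the authors' deposited table was -0.88 ± 0.22 (standard error; DESeq2 adjusted p = 2.09e-04). PRIM1, the catalytic primase subunit of that complex, was at 445 in shikonin and 216 in control, 2.06-fold higher (interval 1.47 to 2.91) in the authors' deposited table. Thus 1 subunit of this complex fell and 2 rose. Their intervals leave out no change by selection, since every listed gene passed the authors' p threshold. For DNA polymerase epsilon, which copies the leading strand, the catalytic subunit POLE (chr12:132623753-132687365, 49 exons) was at 689 in shikonin and 1162 in control. POLE was 1.69-fold lower (interval 1.26 to 2.25) in the authors' deposited table. Its second subunit, POLE2, was at 539 normalized counts in shikonin and 315 in control and was 1.71-fold higher (interval 1.33 to 2.20) in the authors' deposited table. POLD1, the catalytic subunit of polymerase delta, was not listed. POLA2 shares 35.1% of its exonic bases with AP000944.2 on the same strand, and PRIM1 shares 14.9% with AC117378.1, so reads of these genes may be split between overlapping annotations.

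Because subunits of 1 complex moved in opposite directions, their promoter windows are shown, in RefSeq coordinates of GRCh38.p14. Each runs from 250 bases before to 50 after the annotated start, 5′ to 3′ on the gene's own strand, with matches to the E2F consensus in capitals.
POLA1, chrX:24693668-24693967, plus strand: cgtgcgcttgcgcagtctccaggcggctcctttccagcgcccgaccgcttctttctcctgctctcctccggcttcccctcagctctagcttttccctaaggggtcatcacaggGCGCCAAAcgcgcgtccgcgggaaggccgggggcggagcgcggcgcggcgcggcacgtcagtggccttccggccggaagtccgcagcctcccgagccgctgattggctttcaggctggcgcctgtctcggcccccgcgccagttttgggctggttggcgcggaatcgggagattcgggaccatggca
POLA2, chr11:65261712-65262011, plus strand: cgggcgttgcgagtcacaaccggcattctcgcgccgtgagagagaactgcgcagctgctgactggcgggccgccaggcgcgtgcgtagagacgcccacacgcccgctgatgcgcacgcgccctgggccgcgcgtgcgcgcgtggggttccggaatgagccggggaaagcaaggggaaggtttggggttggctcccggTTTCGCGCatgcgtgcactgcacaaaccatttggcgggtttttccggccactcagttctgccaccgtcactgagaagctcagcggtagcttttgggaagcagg
PRIM1, chr12:56752274-56752573, minus strand: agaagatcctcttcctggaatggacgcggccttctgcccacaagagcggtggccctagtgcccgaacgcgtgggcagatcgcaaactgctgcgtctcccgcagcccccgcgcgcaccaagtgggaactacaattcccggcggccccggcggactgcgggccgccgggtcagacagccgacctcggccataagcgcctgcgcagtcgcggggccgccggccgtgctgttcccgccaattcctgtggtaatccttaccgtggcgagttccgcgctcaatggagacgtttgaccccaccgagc
POLE, chr12:132687293-132687592, minus strand: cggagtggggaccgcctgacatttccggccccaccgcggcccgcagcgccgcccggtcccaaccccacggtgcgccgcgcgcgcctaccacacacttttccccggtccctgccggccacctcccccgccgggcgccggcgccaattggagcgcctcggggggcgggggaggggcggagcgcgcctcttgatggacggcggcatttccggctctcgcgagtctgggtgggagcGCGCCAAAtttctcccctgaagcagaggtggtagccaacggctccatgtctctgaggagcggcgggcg
POLE2, chr14:49688165-49688464, minus strand: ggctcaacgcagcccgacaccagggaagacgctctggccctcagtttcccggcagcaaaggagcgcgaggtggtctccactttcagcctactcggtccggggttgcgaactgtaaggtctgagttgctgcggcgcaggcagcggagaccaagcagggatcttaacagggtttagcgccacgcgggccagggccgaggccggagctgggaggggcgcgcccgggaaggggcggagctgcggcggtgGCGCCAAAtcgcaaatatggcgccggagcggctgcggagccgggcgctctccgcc
The lower genes POLA1 and POLE and the higher genes POLA2 and POLE2 each hold 1 E2F match. The PRIM1 window holds 0, which says only that these letters are not in it. The consensus was searched on both strands as TTTCCCGC, TTTCGCGC, TTTGCCGC and TTTGGCGC and matches that overlap, as in MCM2 and MCM6, were counted separately.

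Windows were held for 36 of the 40 members, and 18 of these (50%) had an E2F match, as did 4.30% of 15843 windows of protein-coding genes. The members with no window are MCM4, MCM5, GINS4 and CCNE2. A match was found in 6 of 15 windows of members that rose, 4 of 5 of members that fell and 8 of 16 of unlisted members. The windows of E2F2, UHRF1, POLA1 and POLE carried it among the lower genes, and those of CDT1, GINS2, GINS3, POLA2, POLE2 and TYMS among the higher. Of the 24 matches, 17 began within 60 bases of the annotated start. The CCAAT box, the site of NF-Y, was searched as CCAAT and found in 55.6% of the members' windows and 36.0% of all windows. The CHR, an element of genes that peak later in the cell cycle, was searched as TTTGAA and found in 2.78% of the members' windows and 12.5% of all windows. A match is a description of the letters and was not tested for binding.

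**Figure D2:**
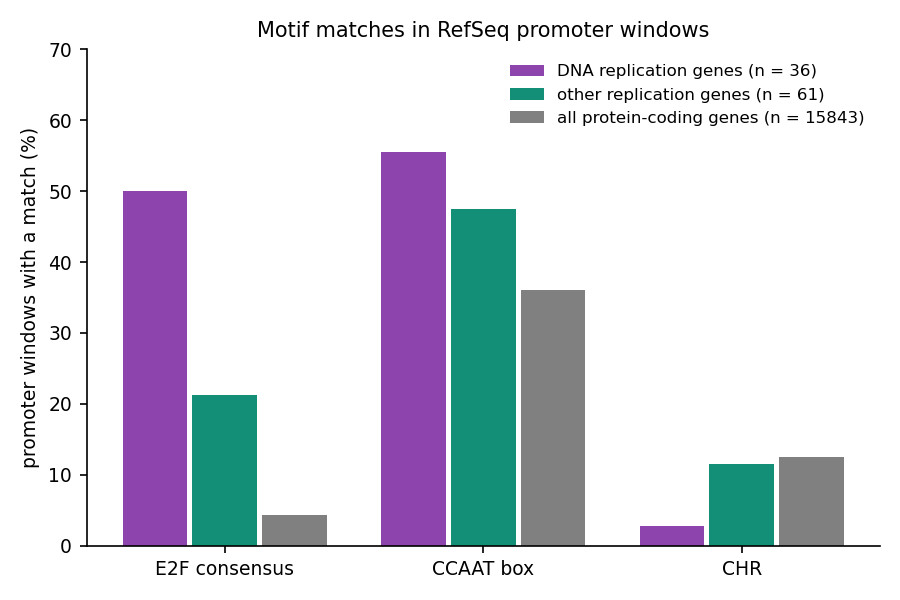
Share of RefSeq promoter windows of 300 bases with at least 1 match to the E2F consensus, the CCAAT box or the CHR, for the DNA replication genes (36 windows), other replication genes (61) and all protein-coding genes (15843). The E2F bar is at 50% for the DNA replication genes, 21.3% for the other replication genes and 4.30% for all genes.

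The clamp PCNA and 3 of its loader's 5 subunits rose, while the large loader subunit RFC1, described below with the other replication genes, was lower. PCNA, the sliding clamp that tethers polymerases to DNA, was at 4411 normalized counts in shikonin and 2586 in control. Its log2 fold change was 0.77 ± 0.15 (standard error; DESeq2 adjusted p = 1.27e-06) in the authors' deposited table. GENCODE has 3 pseudogenes named for PCNA, 2 for TYMS and 1 for RFC5, with which reads could be confused, and none of these was listed. The loader subunits RFC2, RFC4 and RFC5 were 2.17-fold (interval 1.71 to 2.76), 1.98-fold (interval 1.51 to 2.60) and 1.51-fold (interval 1.23 to 1.85) higher in the authors' deposited table. RFC2 stood at 1829 in shikonin and 843 in control, RFC4 at 964 in shikonin and 487 in control, and RFC5 at 1232 in shikonin and 816 in control. RFC5 thus lay, like MCM5, just inside the threshold. RFC3, the flap nuclease FEN1 and the ligase LIG1, which finish lagging-strand fragments, were not listed.

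Both nucleotide enzymes that were listed make thymidine nucleotides, and both rose. TK1, the thymidine kinase of the salvage pathway (chr17:78174075-78187233, 7 exons), was the most abundant of the listed members, with implied means of 6895 normalized counts in shikonin and 2262 in control. The log2 fold change of TK1 in the authors' deposited table was 1.61 ± 0.19 (standard error; DESeq2 adjusted p = 1.78e-16), or 1.21 with equal implied totals. TYMS, thymidylate synthase of the de novo pathway, was at 5101 in shikonin and 2840 in control and 1.80-fold higher (interval 1.41 to 2.29) in the authors' deposited table. TYMS shares 39.1% of its exonic bases with ENOSF1 on the opposite strand, which was not listed. The ribonucleotide reductase subunits RRM1 and RRM2 were not listed.

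Of the chromatin and G1/S genes, UHRF1 and E2F2 fell and CCNE2 rose. UHRF1 brings the maintenance DNA methyltransferase to newly copied DNA. It was at 982 normalized counts in shikonin and 1694 in control, a log2 fold change of -0.79 ± 0.21 (standard error) in the authors' deposited table. The CAF-1 subunits CHAF1A and CHAF1B, which deposit histones behind the fork, were not listed. E2F2, an activating E2F, was at 46.5 in shikonin and 102 in control, the lowest level of any listed member. Its log2 fold change of -1.13 ± 0.45 (standard error; DESeq2 adjusted p = 0.0205) in the authors' deposited table has the widest error of the 23. Cyclin E2, CCNE2, was at 366 in shikonin and 208 in control and 1.76-fold higher (interval 1.34 to 2.32) in the authors' deposited table. Exons of CCNE2 overlap those of INTS8 on the opposite strand over 37.0% of their bases, and INTS8 was lower (log2 fold change -0.79 in the authors' deposited table). CCNE1 and E2F1 were not listed.

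Per kilobase of principal transcript, the listed members spanned a wide range of levels averaged over all libraries. TK1 had 2812 normalized counts per kilobase, PCNA 2574, TYMS 2389 and MCM7 1451. POLA1 had 103, POLA2 88.2 and CCNE2 86.3, and E2F2 was at 14.3. TK1, PCNA, TYMS and MCM7, the most abundant listed members per kilobase, all rose. Each is shorter than 3157 nt, where 87.6% of listed protein-coding genes were higher.

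**Figure D3:**
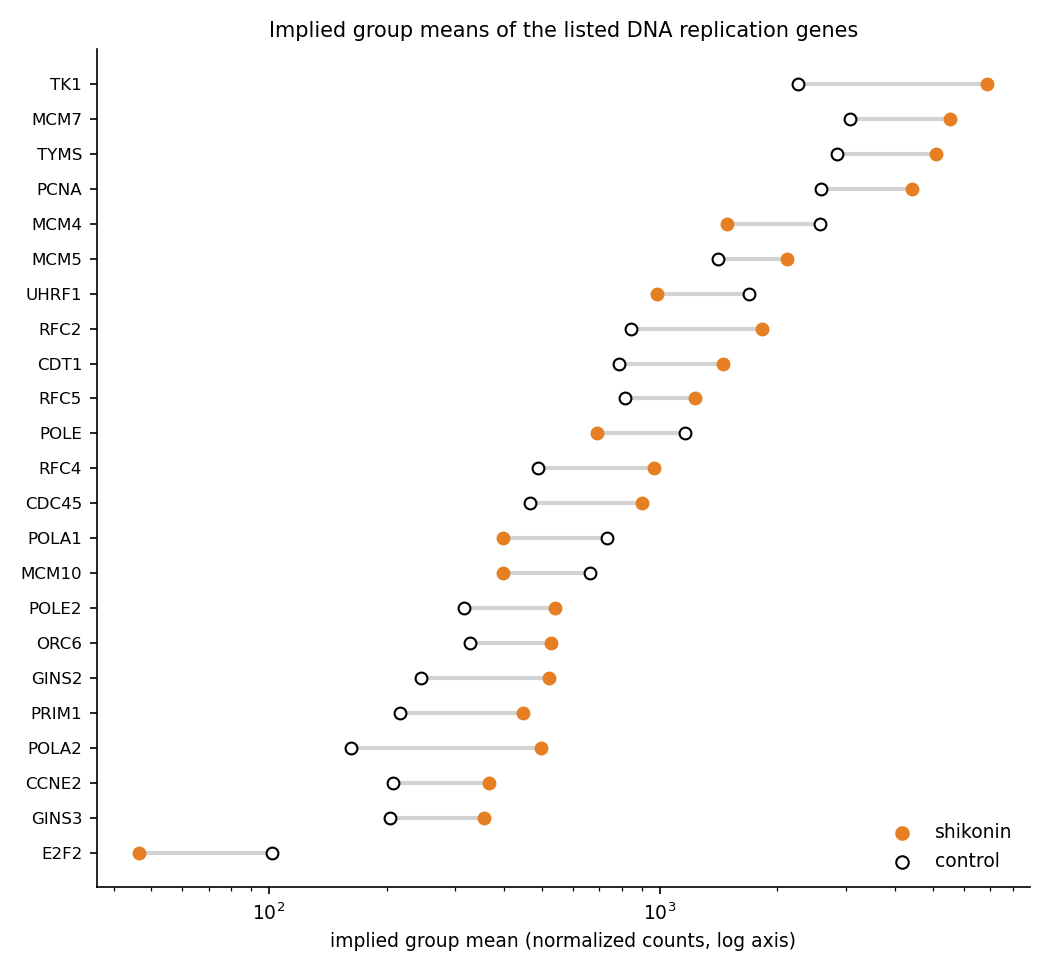
Implied group means of the 23 listed DNA replication genes in normalized counts on a log axis, shikonin filled and control open, ordered by mean level. TK1 reached 6895 in shikonin against 2262 in control, and E2F2 lay lowest at 46.5 in shikonin against 102 in control. No error is drawn, since values per library are not held.

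Members that rose had mostly shorter transcripts than members that fell. The principal transcripts of the 17 higher members span 1359 to 3744 nt (median 1776) and those of the 6 lower members 3157 to 7840 nt (median 4687), in GENCODE 29. The 13 listed members shorter than 3157 nt were all higher, and the 4 longer than 3744 nt (MCM4, E2F2, POLA1 and POLE) were all lower. Of all listed protein-coding genes, 87.6% of those shorter than 3157 nt were higher and 88.2% of those longer than 3744 nt were lower, so the split of the members is close to that of listed genes of such lengths. Between these lengths 4 were higher (CDT1, CCNE2, MCM5 and POLA2) and 2 lower (MCM10 and UHRF1). Among the 461 listed protein-coding genes of these middle lengths, 40.3% were higher and 59.7% lower. The 17 unlisted members, at 2043 to 4810 nt, had a median of 3339 nt. Spearman's rho between length and log2 fold change was -0.49 over the 23 members, which share libraries, and 0.05 within the 17 higher ones. Over the 6890 listed protein-coding genes with a length it was -0.70. Taking the transcript with the longest coding sequence gave -0.45 for the members, and shortened MCM4 to 3157 nt. Set among listed genes in the same length decile, 11 of the 23 members lay above the middle fold change. POLA2 stood at percentile 90.4 of its decile, POLE at 82.7, TK1 at 79.8 and CCNE2 at 76.2. RFC5 stood at 9.29, PCNA at 18.9, ORC6 at 21.2, UHRF1 at 22.1 and MCM10 at 24.5. With the longest coding sequence UHRF1 stood at 43.7, and MCM4 at 22.2 in place of 42.2. The part of transcript length in these changes was not tested.

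**Figure D4:**
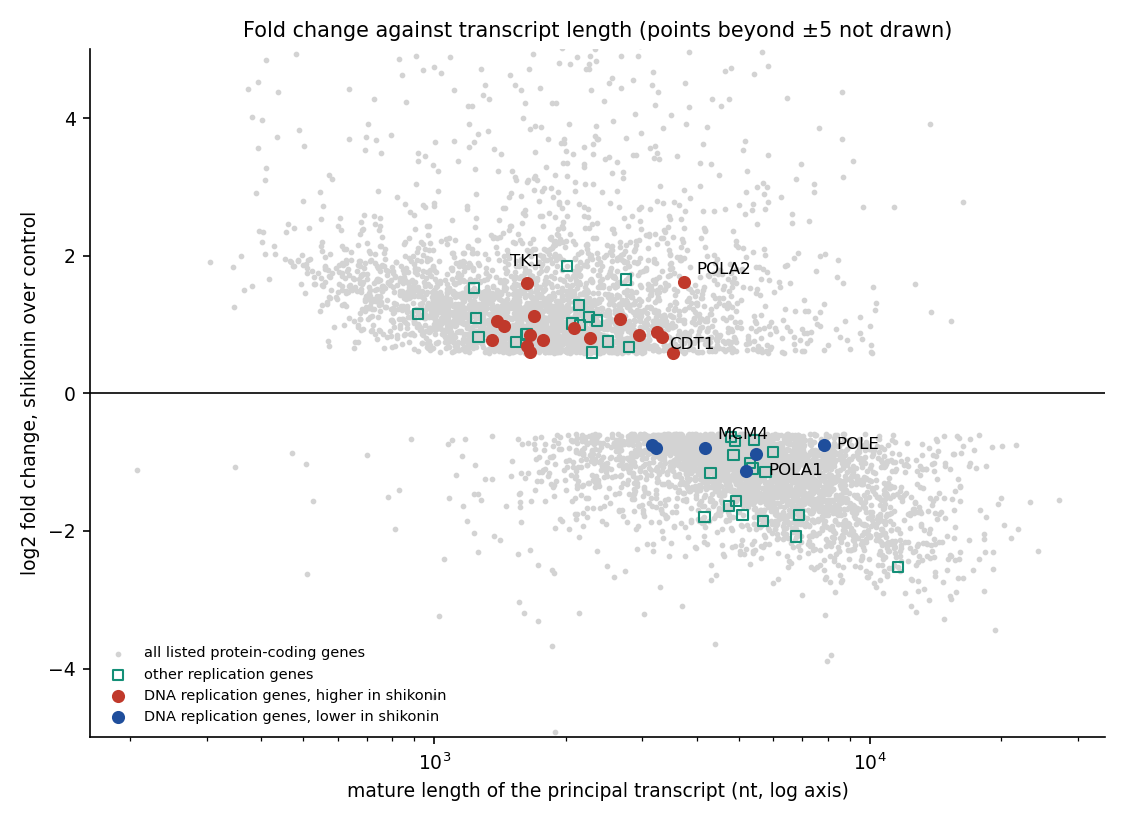
Log2 fold change against mature length of the principal transcript (log axis) for 6890 listed protein-coding genes (grey), other replication genes (green squares) and the DNA replication genes that were higher (red) or lower (blue) in shikonin. The red points span 1359 to 3744 nt and the blue points 3157 to 7840 nt. A total of 102 genes beyond 5 on the log2 scale are not drawn.

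Among 76 other replication genes, 17 were higher and 17 lower in the authors' deposited table, 22.4% on each side, which is near the 25.5% and 24.7% of all genes tested. Of the 17 genes of origin control and firing, 2 (11.8%) were higher and 4 (23.5%) lower. Of 24 fork enzymes, 7 (29.2%) were higher and 4 (16.7%) lower. Spearman's rho between principal transcript length and log2 fold change was -0.81 over the 34 listed genes, beside -0.70 over all listed protein-coding genes. With the transcript of the longest coding sequence these were -0.71 and -0.70. The part of length in these directions was not tested. TICRR, which helps load CDC45, was 4.23-fold lower (interval 2.58 to 6.95), the MCM-family helicase MCM9 was 3.39-fold lower (interval 2.22 to 5.19), and CLSPN, the checkpoint adaptor claspin, was 3.48-fold lower (interval 2.55 to 4.74) in the authors' deposited table. ATAD5, which unloads PCNA, was 3.39-fold lower (interval 2.32 to 4.97) in the authors' deposited table. GMNN, the geminin that holds CDT1 in check, was 1.76-fold higher (interval 1.42 to 2.18) in the authors' deposited table. RPA3, the smallest subunit of the single-strand binding complex, was 3.60-fold higher (interval 2.85 to 4.56), and RNASEH2A, the catalytic subunit of RNase H2, 3.15-fold higher (interval 2.44 to 4.05) in the authors' deposited table. In nucleotide supply, DTYMK, the kinase that acts on the product of TK1 and TYMS, was 2.88-fold higher (interval 2.20 to 3.77) in the authors' deposited table, and the dUTPase gene DUT 2.43-fold higher (interval 1.88 to 3.14). RRM2B, the p53-inducible reductase subunit, and SAMHD1, which breaks down dNTPs, were 2.96-fold (interval 2.22 to 3.96) and 2.02-fold (interval 1.66 to 2.47) lower in the authors' deposited table. Of the replication chromatin genes, the histone chaperone gene ASF1A was 2.08-fold higher (interval 1.63 to 2.65) and DNMT1, the methyltransferase that UHRF1 recruits, 1.60-fold lower (interval 1.31 to 1.95) in the authors' deposited table.

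The G1/S control genes beyond the members were 19, of which 3 (15.8%) were listed as higher and 6 (31.6%) as lower, beside 25.5% and 24.7% of all genes tested. CDK6 was 5.77-fold lower (interval 4.58 to 7.26) and RBL1, which encodes the pocket protein p107, 3.62-fold lower (interval 2.70 to 4.85) in the authors' deposited table. CDKN1A, the gene of the CDK inhibitor p21, was at 15319 normalized counts in shikonin and 7125 in control, 2.15-fold higher (interval 1.74 to 2.66) in the authors' deposited table. CDK4 was 2.02-fold higher (interval 1.64 to 2.50) in the authors' deposited table. E2F3, CCND1, RB1 and RBL2 were listed as lower and CDK2 as higher. The shift to equal implied totals is too small to change the direction of any of the 9 listed.

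**Figure D5:**
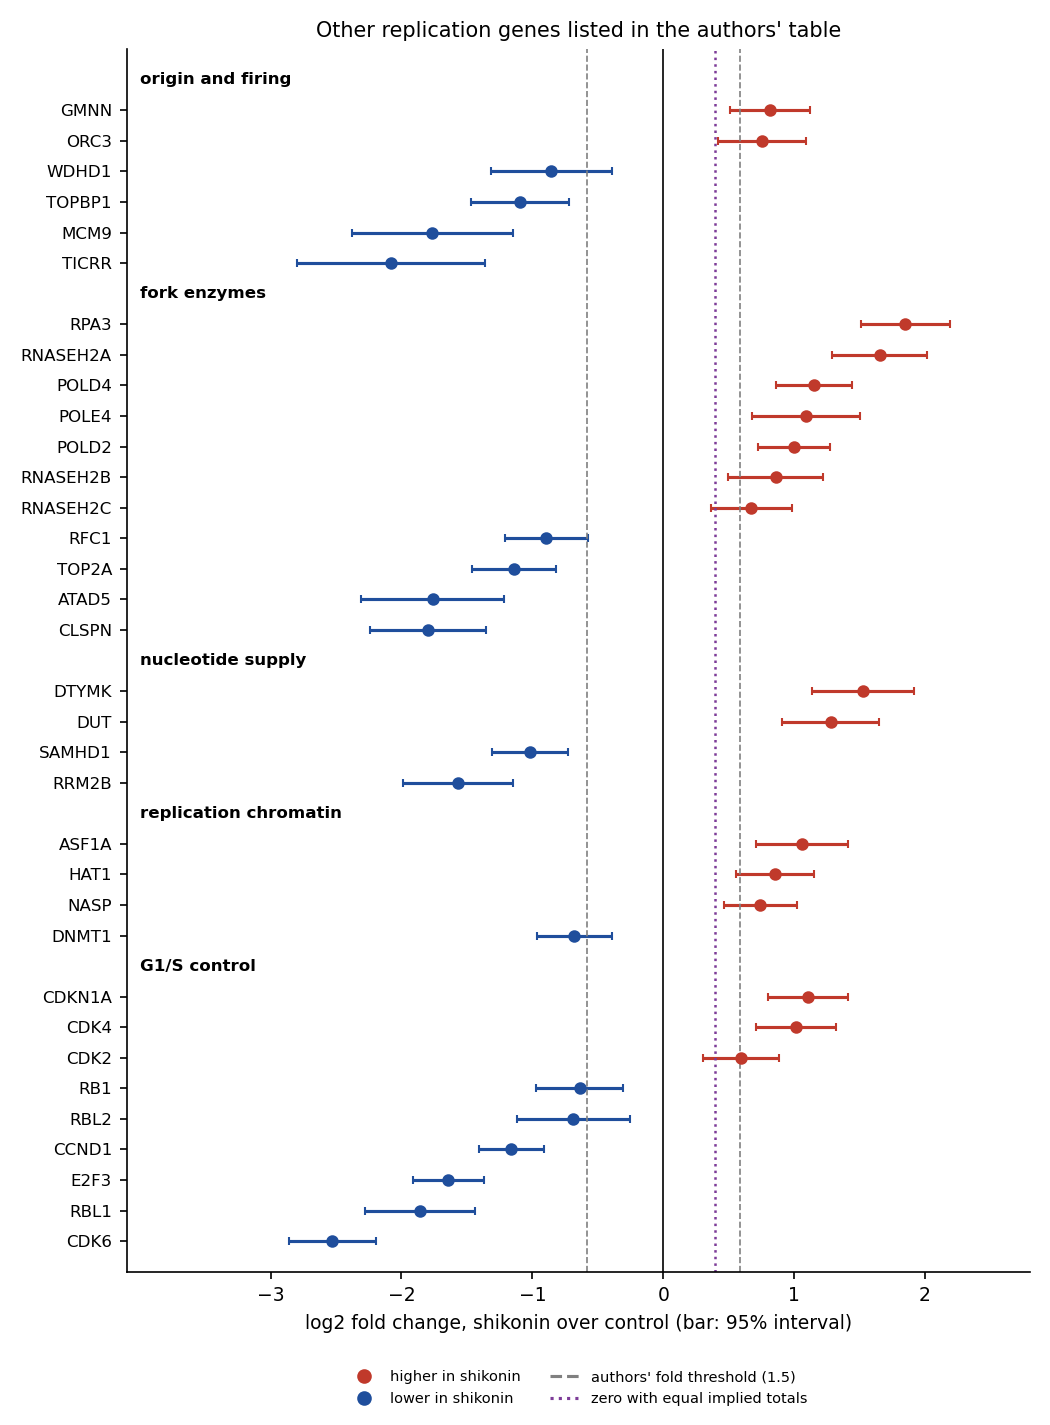
Log2 fold change of the 34 listed genes among 76 other replication genes, shikonin over control, by role, with 95% intervals from the authors' standard errors. RPA3 lies highest at 1.85 and CDK6 lowest at -2.53. With equal implied totals, 0 lies at the dotted line (0.39) and 7 of the 17 higher genes fall inside the fold threshold. The shift is too small for any to change side.

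Set out by complex, a view chosen after the values were seen, 4 of the complexes examined had listed subunits on both sides. In each, the lower subunit had the longest principal transcript of the complex. Those 4 lower subunits exceed 3744 nt, and 88.2% of listed protein-coding genes beyond that length were lower. In replication factor C, the large subunit RFC1 (4859 nt) was 1.86-fold lower (interval 1.49 to 2.31) in the authors' deposited table, beside the higher RFC2, RFC4 and RFC5 (1448 to 1695 nt). In polymerase epsilon, POLE (7840 nt) was lower beside POLE2 (1776 nt) and POLE4 (1248 nt), the last 2.13-fold higher (interval 1.60 to 2.84) in the authors' deposited table. In polymerase alpha-primase, POLA1 (5486 nt) was lower beside POLA2 (3744 nt) and PRIM1 (1393 nt). In the MCM2-7 ring, MCM4 (4183 nt) was lower beside MCM5 (3534 nt) and MCM7 (2957 nt), but with the longest coding sequence MCM4 measures 3157 nt and is shorter than MCM5. For polymerase delta, the small subunits POLD2 and POLD4 were 2.00-fold (interval 1.65 to 2.42) and 2.22-fold (interval 1.82 to 2.71) higher in the authors' deposited table, with POLD1 and POLD3 unlisted. All 3 RNase H2 subunits were higher, and all are shorter than 3157 nt, where 87.6% of listed protein-coding genes were higher. GINS, RPA, CAF-1, the origin recognition complex and ribonucleotide reductase were also examined and did not have listed subunits on both sides.

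Since the table holds only changed genes, the identity of the cells could be checked only in part. Of 10 genes typical of MDA-MB-231 and mesenchymal cells, 4 (40%) were listed as higher and 2 (20%) as lower. Over all genes tested these shares were 25.5% and 24.7%. VIM, CAV1, ANXA1 and S100A4 were higher, and EGFR and ZEB1 were lower. VIM was at 64429 normalized counts over all libraries in the authors' deposited table. ESR1 and PGR, the hormone receptors that this subtype lacks, were not listed, which does not show that they were absent. Of 18 markers of fibroblasts, immune cells and endothelium, 5 were listed, all higher. The shares were 14.3% for fibroblasts, 42.9% for immune cells and 25% for endothelium, beside 25.5% of all genes tested. Implied summed means of these 5 were 6554 normalized counts in shikonin and 3262 in control. CD68 was 1.58-fold higher, CD14 4.47-fold, PECAM1 4.10-fold, LYZ 8.83-fold and PDGFRB 1.94-fold in the authors' deposited table. The LYZ fold (interval 3.39 to 23.0) rests on few reads, with implied means of 36.1 normalized counts in shikonin and 4.09 in control. Of 12 hormone receptor and luminal markers, 7 (58.3%) were higher and 1 (8.33%) lower, beside 25.5% and 24.7% of all genes tested. The lower gene was ERBB2, with implied means of 1090 normalized counts in shikonin and 2174 in control. The higher genes were KRT8, KRT18, KRT19, EPCAM, XBP1, TFF1 and FOXA1. Their principal transcripts measure 551 to 2862 nt, and 87.6% of listed protein-coding genes shorter than 3157 nt were higher. The transcript of ERBB2 measures 4545 nt, and 88.2% of those longer than 3744 nt were lower. The part of length in these marker changes was not tested. Summed means of the listed luminal markers were 63630 in shikonin and 25599 in control. The part of these differences in the results for replication genes was not tested.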

How the data were processed

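RNA-seq libraries of MDA-MB-231 cells (3 shikonin, 3 control) were made with a NEBNext Ultra kit, per the labels' protocols. Reads were handled with HISAT2 2.0.5, fastp and DESeq2 on hg38, per the submitters' processing notes, which give no roles. No source used here names the counter, its annotation or its use of strand. The only file is the authors' deposited table of 7150 genes. It gives the mean normalized count, a signal that the authors averaged over the 6 libraries, and the authors' log2 fold change with its standard error. It also gives the authors' Wald score and the deposited p-value with its adjusted value, per the file headers. Planned tests of counts per library were not possible without such values.

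Implied group means follow from the listed mean and fold if all libraries weigh equally. Fold intervals at 95% are the log2 fold change ± 1.96 standard errors. The number of genes tested, about 14254, was recovered from p, adjusted p and rank over the top 60 genes, by a procedure tested on simulated data. Equal implied totals means that the summed group means of listed genes were set equal. Lengths, exons and overlaps came from GENCODE 29 (GRCh38), matched by Ensembl identifier for 7142 genes. Promoter windows came from RefSeq (GRCh38.p14). Every listed member was named. Of the other replication genes, the largest changes in each list got values, and RFC1, POLE4, POLD2 and POLD4 were added after their values were seen. Members and lists were chosen with earlier results of these data known. Python 3.11.15 with pandas 2.3.3 and scipy 1.17.1 was used.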

Additional observations from a re-analysis of the deposited data

How the results depend on the processing

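The 17 higher members became 5 at a minimum of 2-fold, 5 with the 95% interval wholly beyond 1.5-fold and 6 with equal implied totals. The 6 lower members became 1 at 2-fold and 0 with the interval beyond 1.5-fold. Equal totals left 6, since a downward shift can remove no lower gene. The 17 higher genes among the other replication genes became 9, 10 and 10 under 2-fold, the interval and equal totals. The remaining counts stayed within 1.5 times under an adjusted p below 0.001 or a mean of at least 100 normalized counts, where 15 and 17 members were higher and 4 and 5 lower. Stricter limits can only remove listed genes, and unlisted genes that equal totals would add as lower are not held. Shares over all genes were not computed for the interval, adjusted p and mean limits. The median of the listed members moved to 0.41 with equal totals. Of single members, 12 stayed past 1.5-fold under it and 11 did not. The 6 lower members among the 12 could not fail, and the shift is too small to change any sign.

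No paired analysis was possible because the table holds no values per library, and for the same reason the fits without each replicate, another count test and other filters on low counts were not run. Depth per library is unknown, and a fold resting on few reads, as in E2F2 and the marker LYZ, is imprecise.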

Other observations

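Several replication genes start close to a protein-coding gene of the opposite strand, and some of these pairs overlap. For 15 of the 40 members such a gene lay on the opposite strand with its annotated start within 1000 bases. In 7 of these pairs both genes were listed in the authors' deposited table, and 5 pairs moved the same way and 2 in opposite ways. The shares of such pairs over all genes were not computed, so these counts show no trait of the members. PRIM1 with HSD17B6 and CCNE2 with NDUFAF6, both among the 5, overlap each other. TK1 and AFMID (log2 fold change 1.11 ± 0.17, standard error, in the authors' deposited table) were both higher, as were CDC45 and UFD1 (1.10 ± 0.14). MCM4 and PRKDC, whose starts are 2 bases apart, were both lower, PRKDC by far more (-2.37 ± 0.16 in the authors' deposited table). PCNA was higher while CDS2, which starts 160 bases away, was lower (-1.08 ± 0.13 in the authors' deposited table), and their principal transcripts measure 1359 and 9298 nt. POLE was lower while PXMP2, 241 bases away, was higher (1.57 ± 0.26 in the authors' deposited table), with transcripts of 7840 and 957 nt. Listed neighbours of unlisted members were TMEM258 beside FEN1 (1.69 ± 0.17 in the authors' deposited table) and ZSWIM9 beside LIG1 (-0.60 ± 0.20). Whether start sites or transcript lengths set these directions was not tested.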
